A study of Drosophila melanogaster with 4 samples.

Results

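The spalt complex of Drosophila melanogaster is the stretch of chromosome arm 2L that carries the neighbouring genes salm (spalt major) and salr (spalt-related). The regions described here are all clusters that overlapped 2L 11330000 to 11480000 on FlyBase release 5, a window of 150 kb chosen by position. Clusters are stretches listed as enriched for the Polycomb group protein Psc. The choice of window was made with earlier results of these data known. The window held 17 of the 2628 clusters of the replicate 1 list, 11 of the 2432 clusters of the replicate 2 list and 33 of the 8687 clusters of the combined list, or 61 of 13747 in all. Psc was mapped by ChIP-seq, in which chromatin fragments bound by an antibody are sequenced, in 2 ChIP samples and 2 input samples (chromatin without the antibody step), and each input was the background for the ChIP list of its own number. Every sample came from wild-type embryos of the Oregon-R strain (Oregon-R-modENCODE) labelled 14 to 16 h old and fixed in 1.8% formaldehyde. The collection protocol says only that embryos were at most 16 h old. Whole embryos were used, so each cluster is an average over tissues in which the genes may be on or off. Nothing in the labels says that the replicates were separate collections, so their spread may be technical, and no mutant or second stage was set against these samples.

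Psc works in Polycomb repressive complex 1, a chromatin complex that keeps developmental genes silent in cells where they were not switched on earlier in the embryo. In flies the complex is brought to DNA at Polycomb response elements, short sequences read by factors such as Pho and GAGA factor, and it can then cover wider stretches around them. salm and salr encode related zinc-finger transcription factors, the founding genes of the family called SALL in vertebrates. They act in the head and tail regions of the embryo, the trachea, the oenocytes and the nervous system, and later in the wing, where the Dpp signal switches them on, and in the eye. Both genes are known to draw on shared regulatory DNA. In the RefSeq gene table used here, which is of release 6, both genes were found on 2L in the order salr, the non-coding RNA gene lncRNA:CR43681, salm, with 0 protein-coding genes between them. The protein-coding gene listed before salr was CG14926, and the one listed after salm, beyond lncRNA:CR46454, was sala (spalt-adjacent). The clusters are on release 5, so none was placed in an exon, intron or untranslated region, and none was given to one gene or the other.

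Psc was not spread evenly over the window. In each list 2 clusters stood well above the rest, about 88 kb apart, and a scatter of lower-scoring, mostly narrower clusters lay before, between and after them. Each cluster carries an enrichment score made by the authors. The lists name neither its unit nor its scaling, so scores are compared only within a list. A higher score is taken here as stronger enrichment, an assumption that was not checked. The read numbers behind a cluster are unknown, and no error can be attached to a single score.

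**Figure D1:**
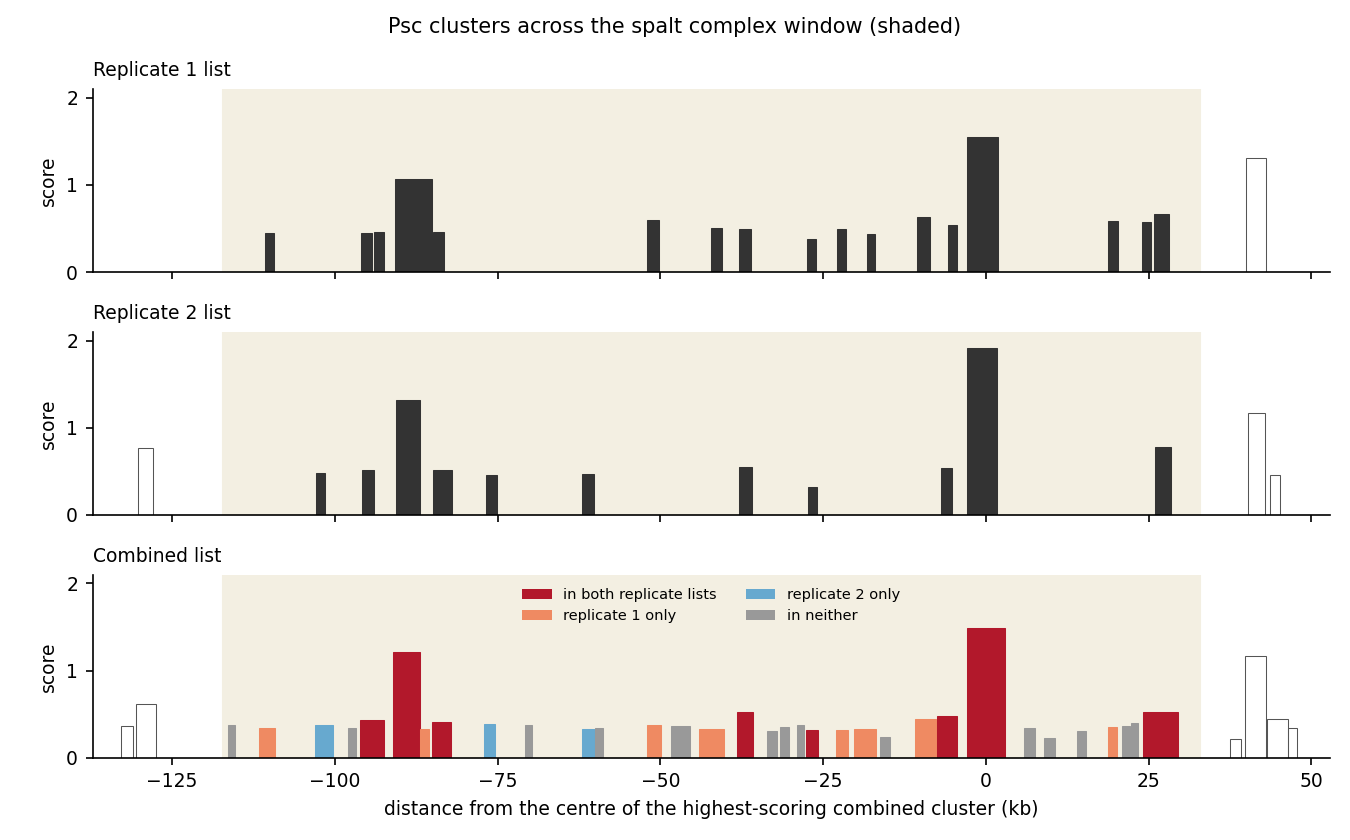
Clusters of the 3 lists along the window, with the distance from the centre of the highest-scoring combined cluster in kb on the x axis and the authors' score on the y axis; the width of a bar is the width of the cluster. Filled bars lie in the shaded window and open bars outside it, and colours in the lowest panel give the replicate lists that a combined cluster overlapped. The cluster at 0 and the one near -89 kb are the highest of the window in every list, and a further high cluster lies outside the window to the right.

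The strongest cluster of the window was the same region in every list. In replicate 1 it spanned 2L 11444300 to 11448982 (4683 bp) with a score of 1.55, the rank 82 in its list and 14 on 2L. In replicate 2 it spanned 11444334 to 11448864 (4531 bp) with a score of 1.92, at rank 31 in the list and 4 on 2L. In the combined list it spanned 11444216 to 11450164 (5949 bp) with a score of 1.49, at rank 96 in the list and 6 on 2L. It thus scored above 96.9%, 98.7% and 98.9% of the replicate 1, replicate 2 and combined clusters. It was picked as the highest of 17, 11 and 33 window clusters, so a high percentile is partly set by that choice. The same limit holds for the second strongest cluster. Its position was repeated closely, with starts 34 bp and ends 118 bp apart between the replicates, and the base pairs in both replicate clusters were 96.8% of those in either.

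The second strongest cluster lay to the left of it. Replicate 1 listed it at 11356507 to 11362075 (5569 bp) with a score of 1.06, above 90.1% of its list. Replicate 2 listed it at 11356647 to 11360212 (3566 bp) with a score of 1.32, above 93.3% of its list, and the combined list at 11356100 to 11360341 (4242 bp) with a score of 1.21, above 98.0%. Here the starts differed by 140 bp, while the replicate 2 cluster ended 1863 bp before that of replicate 1. The longer replicate 1 cluster reached over a second combined cluster, 11360346 to 11361646 with a score of 0.327, which began 4 bp after the first and which replicate 2 did not list.

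The centres of these clusters were 87.4 kb (replicate 1), 88.2 kb (replicate 2) and 89.0 kb (combined list) apart. The right one scored higher than the left one by 0.485, 0.604 and 0.283 in the same lists. The left one stood above the next highest cluster of the window by 0.399, 0.541 and 0.685. That next cluster was also the same region in each list. Replicate 1 had it at 11472971 to 11475374 (score 0.666), replicate 2 at 11473216 to 11475693 (0.775), and the combined list within a cluster of 5410 bp at 11471300 to 11476709 (0.527). The pair of strong clusters took up 29.6% of the bases covered in the window in replicate 1 and 32.0% in replicate 2, against 13.6% in the combined list, which holds many more weak clusters.

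Most other clusters of the window had scores near the middle of their own list. The median window score was 0.510 for replicate 1, 0.518 for replicate 2 and 0.360 for the combined list, against list medians of 0.569, 0.524 and 0.374. Above the list median were 7 of 17, 5 of 11 and 14 of 33 window clusters. Below the 25th percentile were 6 of 17, 1 of 11 and 8 of 33. By width, 6 of 17, 7 of 11 and 21 of 33 were above the list median. Above the 95th percentile of the list by score were 1 of 17 (replicate 1), 1 of 11 (replicate 2) and 2 of 33 (combined list). That threshold takes 4.98%, 5.02% and 5.01% of all clusters of those lists. Counts this small, like those around the medians, are close to the background. Apart from the strong pair, the highest window scores were 0.666, 0.775 and 0.527 in the same lists.

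**Figure D2:**
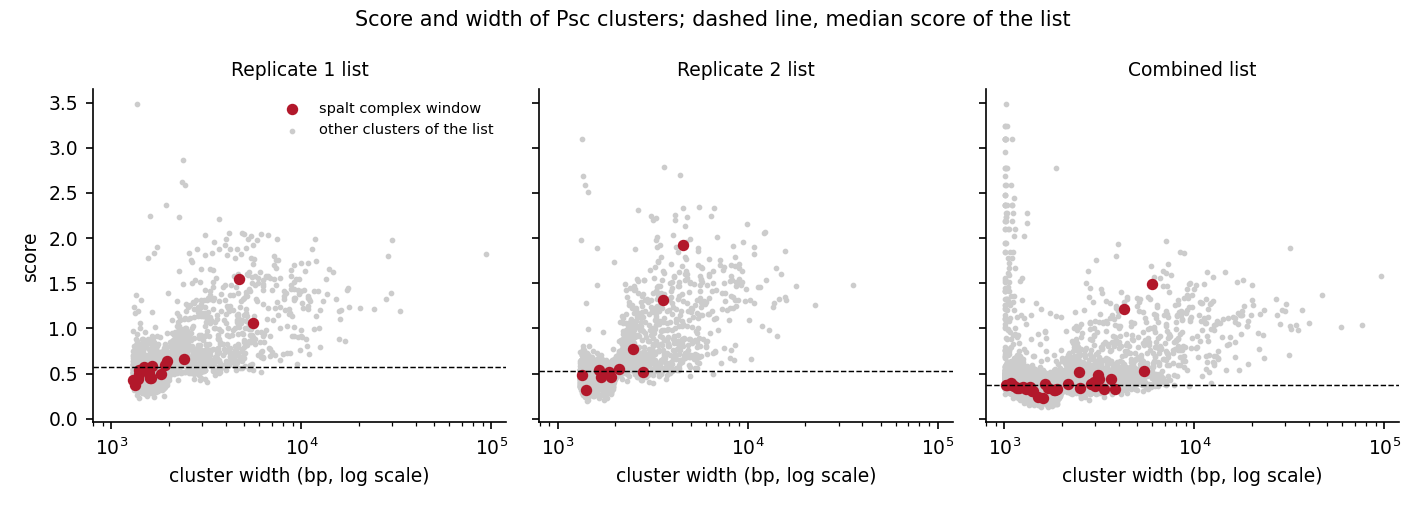
Score of each cluster (y axis, the authors' unit) against its width in bp (x axis, log scale) in the 3 lists, with the window clusters in red, the other clusters of the list in grey and the list's median score as a dashed line. In each list 2 window clusters lie in the upper part, with widths from 3566 to 5949 bp, and most of the others lie at lower scores, near the dashed line.

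The stretch between the strong clusters held lower-scoring clusters in every list and was covered more than the rest of 2L. Replicate 1 had 9 clusters there, with scores from 0.378 to 0.637, that covered 17.4% of 82224 bp, against 4.67% of the rest of 2L. Replicate 2 had 6, with scores from 0.317 to 0.550, that covered 13.7% of 84121 bp, against 4.17%. The combined list had 19, with scores from 0.236 to 0.521, that covered 47.6% of 83874 bp, against 12.1%. None of these could reach the score of either flanking cluster, since those were picked as the 2 highest of the window.

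Within that stretch both replicates listed some sites. A cluster at 11409321 to 11411134 in replicate 1 (score 0.498) met one at 11409232 to 11411336 in replicate 2 (0.550), and the combined cluster there, 11408976 to 11411440, scored 0.521, above 90.1% of its list. Next to the right-hand strong cluster lay a site at 11441318 to 11442718 in replicate 1 (0.537) and at 11440296 to 11441940 in replicate 2 (0.541). A weak site at 11419741 to 11421067 in replicate 1 (0.378) and 11419814 to 11421211 in replicate 2 (0.317) scored above only 3.77% and 1.93% of the 2 lists, yet both lists had it with starts 73 bp apart. A low score therefore did not always go with absence from the other list.

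Other sites were in one replicate list alone. The longest empty gap in replicate 1, 31178 bp from 11363893 to 11395072, held the replicate 2 clusters 11370394 to 11372080 (score 0.459) and 11385171 to 11387072 (0.468). The longest in replicate 2, 24351 bp from 11448864 to 11473216, held the replicate 1 clusters 11465883 to 11467523 (0.586) and 11471133 to 11472612 (0.571). Among the unshared window clusters of replicate 1 the highest was 11436590 to 11438547, with a score of 0.637, above 65.2% of its list. A list holds only regions past the submitters' threshold, so the signal at a site missing from a list is unknown and may have lain just below it.

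Counted over the window, 9 of 17 replicate 1 clusters (52.9%, exact 95% interval 27.8 to 77.0) overlapped a replicate 2 cluster by at least 1 bp. For the whole replicate 1 list the share was 51.4%. Of the replicate 2 clusters 8 of 11 (72.7%, 39.0 to 94.0) overlapped a replicate 1 cluster, against 58.7% of the whole replicate 2 list. Both list shares lie inside the intervals of the window, and the intervals cover counting error only. Unshared clusters had scores from 0.432 to 0.637 in replicate 1 and from 0.459 to 0.487 in replicate 2. Shared ones ranged from 0.378 to 1.55 and from 0.317 to 1.92, so shared and unshared scores overlapped in both lists.

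By base pairs, 17114 bp of the window were in clusters of both replicates and 42858 bp in clusters of either, a share of 39.9%. The same share was 42.7% over the rest of 2L and 43.3% over the rest of X and the other major arms (2L, 2R, 3L and 3R). No replicate error can be given for these shares, since each needs both lists.

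The shared clusters of the window formed 8 pairs in which each was the other's longest overlap. Their starts differed by 34 to 1022 bp (median 81 bp) and their ends by 118 to 1863 bp (median 305.5 bp). Over the 1286 other pairs of the lists the medians were 214 bp for starts and 223.5 bp for ends. The bases in both clusters of a pair were 25.7% to 96.8% of those in either (median 80.7%, against 76.9% over the other pairs). The lowest value belonged to the site beside the right-hand strong cluster, where the replicate 2 cluster was shifted 1022 bp to the left at its start. These are 8 pairs from 2 samples, described without a test.

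**Figure D3:**
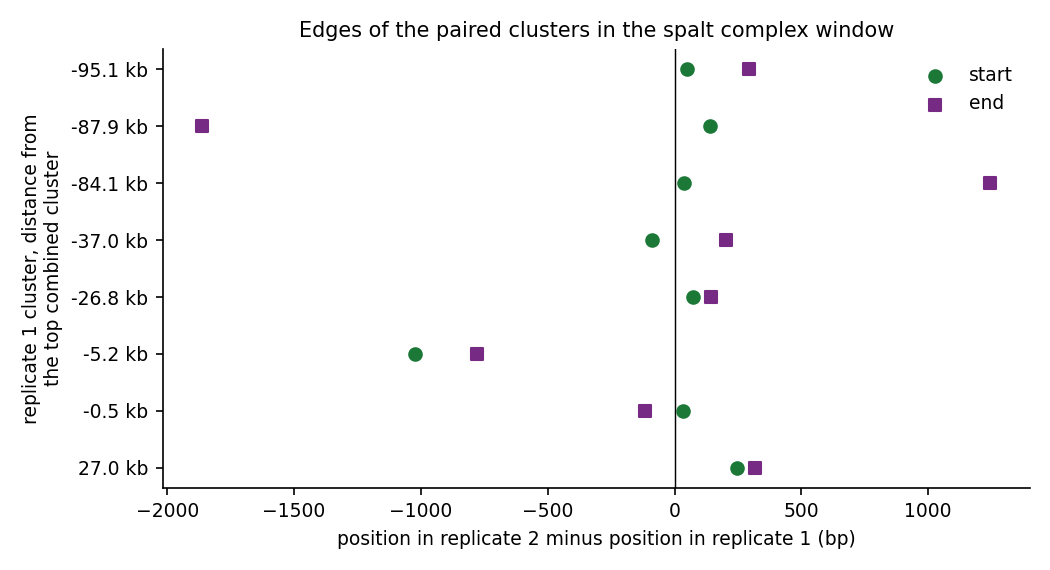
Difference in position, replicate 2 minus replicate 1, of the starts (circles) and ends (squares) of the 8 paired clusters, in bp on the x axis; each row is a pair, labelled by the distance of its replicate 1 cluster from the centre of the highest-scoring combined cluster. Starts lie within 245 bp of each other except in the pair at -5.2 kb, and ends differ by more than 1000 bp in the pairs at -87.9 and -84.1 kb.

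The combined list held every window cluster of the replicates, 17 of 17 and 11 of 11, against 96.3% and 97.4% of the whole replicate 1 and replicate 2 lists. Of its 33 window clusters, 8 (24.2%, exact 95% interval 11.1 to 42.3) overlapped both replicate lists, against 13.5% of the whole combined list. Another 8 met replicate 1 alone (13% of the whole list) and 3 met replicate 2 alone (10.1% of the whole list). The remaining 14 (42.4%, 25.5 to 60.8) met neither, against 63.5% of the whole list, which lies above the interval of the window. Neighbouring clusters are not independent, so the interval is too narrow, and the shares are given as a description. The window clusters were also wider than the combined list (median 1819 against 1449 bp), and no replicate cluster was narrower than 1301 bp. Among combined clusters at least that wide, 8 of 25 in the window (32%) met both lists, against 22.3% in the whole list.

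The clusters with support in both replicates had the largest median width, although widths overlapped between the groups. Their widths in the combined list were 1853 to 5949 bp (median 3376.5) and their scores 0.316 to 1.49 (median 0.503). Those met by replicate 1 alone had a median width of 2328 bp and scores from 0.316 to 0.444. Those met by replicate 2 alone were 1643 to 2865 bp wide, with scores from 0.332 to 0.387. The 14 clusters in neither list were 1023 to 2995 bp wide (median 1226.5), with scores from 0.232 to 0.399. Of these, 8 were narrower than the narrowest replicate cluster of 1301 bp. Clusters met by both replicates were also the widest group over the whole combined list, so that is not particular to the window. Median widths there were 3167 bp (both), 1772.5 bp (replicate 1 alone), 1814 bp (replicate 2 alone) and 1232 bp (neither). The last is below 1301 bp, so most clusters in neither list were that narrow there too. Median scores there were 0.507 (both) and 0.368 (neither), against 0.503 and 0.346 in the window. Between 11450164, where the right-hand strong cluster ended, and 11466003 the combined list had 3 clusters, none of them in either replicate list, with scores of 0.341, 0.232 and 0.303.

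Psc clusters filled a larger part of the spalt window than of the rest of the arm. They covered 23.1% of it in replicate 1 and 16.9% in replicate 2, a mean of 20.0% ± 4.4 (SD, n = 2), against 4.42% ± 0.36 of the rest of 2L (4.67% and 4.17%). Each replicate covered more of the window than either did of the rest of the arm, by 4.95 times in replicate 1 and 4.05 times in replicate 2. In the combined list 50.0% of the window was covered, against 12.1% of the rest of 2L and 14.0% of the rest of the major arms. By number the window had 220.0 combined clusters per Mb, against 60.0 on the rest of 2L. The median gap between window clusters was 3200 bp (replicate 1), 7086 bp (replicate 2) and 1445 bp (combined list), against 11914, 12625 and 5339 bp on the major arms. With 2 samples and no second group the difference was not tested. The window was chosen with earlier results of these data known, so the rest of the arm is not a neutral comparison.

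The major arms were also cut into 789 other stretches of the same length, laid end to end. Of these, 42 (5.32%) were covered at least as much as the window in replicate 1, 54 (6.84%) in replicate 2 and 22 (2.79%) by the combined list. By number of clusters, 12 (1.52%) held at least 17 in replicate 1, 44 (5.58%) held at least 11 in replicate 2, and 1 (0.127%) held at least 33 in the combined list. Shifting the stretches by 50% of their length, an alternative added after the data were seen, turned that last count to 4. By highest score, 63 (7.98%), 23 (2.92%) and 41 (5.2%) of the stretches were at or above the window in replicate 1, replicate 2 and the combined list. Some of those in the combined list held 0 clusters of either replicate list. Examples are 2L 21300143 to 21450143 (highest combined score 3.10) and 2L 22650152 to 22800152 (3.24). The combined ranks of the strongest window cluster count such regions too. In none of the 3 lists was the window the highest in score or coverage.

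**Figure D4:**
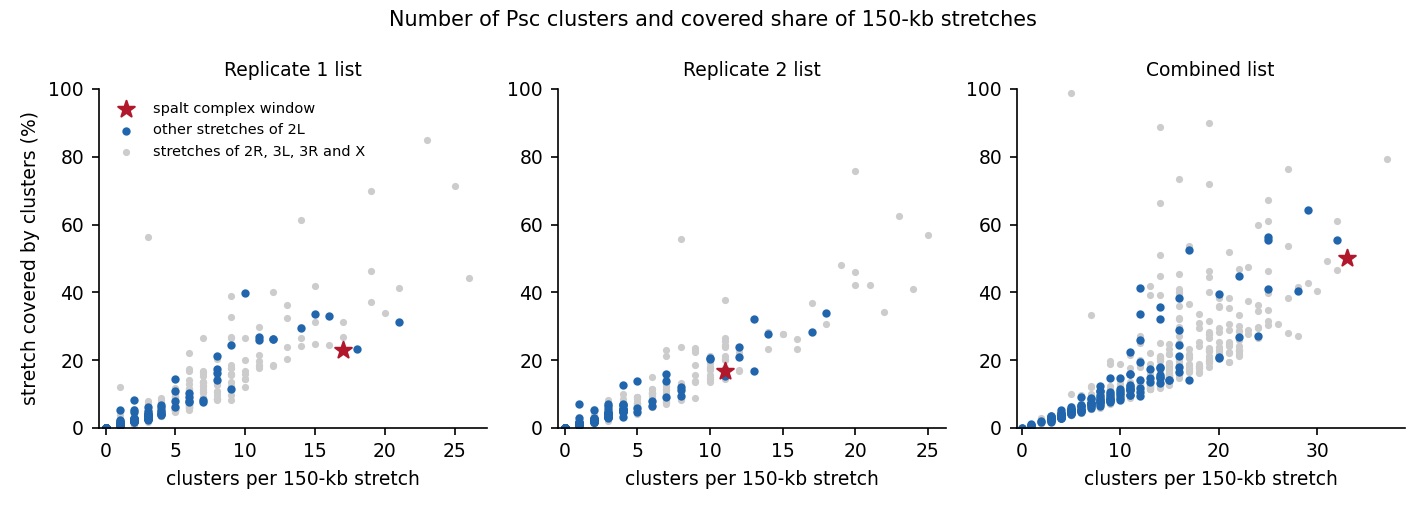
Number of clusters (x axis) and percent of bases covered (y axis) for the spalt window (star) and for the other stretches of 150 kb on 2L (blue) and on the remaining major arms (grey), in the 3 lists. In the combined list the star, at 33 clusters and 50.0% covered, lies to the right of every other point except a single grey one, with several points above it.

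The stretches closest to the window in number of clusters were picked after their values were seen, as the 6 others with at least 30 combined clusters. They held 30 to 37 clusters and were 40.3% to 79.5% covered, against 33 clusters and 50.0% at spalt. Covered bases per cluster were 2275 bp in the spalt window and 2015 to 3222 bp in the 6 others, so the window lay inside their range. One of them was 3L 6750046 to 6900046, with 32 clusters, 46.5% covered, 2179 bp per cluster and a highest score of 1.56, against 1.49 at spalt. In replicate 1 that stretch held 10 clusters over 16.6% of its bases, against 17 and 23.1% in the window. In replicate 2 it held 10 over 14.5%, against 11 and 16.9%. The rest did not all lie below the window in this way. On the same arm, 2L 14400097 to 14550097 (32 combined clusters) held 21 over 31.2% in replicate 1 and 13 over 16.7% in replicate 2. For 3R 6300043 to 6450043 these values were 17 over 31.3% and 14 over 23.2%. For X 1350010 to 1500010 they were 7 over 7.97% and 8 over 8.23%. Closer in combined coverage was X 7050048 to 7200048, with 31 clusters and 49.1% covered, but with a highest score of 0.853. It held 16 clusters over 24.4% in replicate 1 and 16 over 26.2% in replicate 2. The stretch with more combined clusters than the window was 3R 2550018 to 2700018, with 37 clusters that covered 79.5% of it. In replicates 1 and 2 it held 26 over 44.1% and 24 over 40.9%.

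How far the clusters of the window ran together depended on the gap allowed between them. Joined in the combined list where gaps were at most 10 kb, all 33 lay in a domain of 164 kb (11330758 to 11494909) with 37 clusters, at rank 13 by length and 8 by number of clusters among 3075 such domains, and at rank 3 by length among 535 on 2L. Combined clusters filled 51.5% of this domain, and replicate clusters filled 20.4% ± 3.6 of it (SD, n = 2, from 23.0% and 17.9%). At a gap of 5 kb the combined run around the strongest cluster was 81.6 kb long with 21 of the 33 window clusters, and at 25 kb it was 312 kb long with 60 clusters. In the replicate lists at a gap of 10 kb, replicate 1 joined 9 clusters over 53.9 kb around the strongest one. Replicate 2 joined 2 over 8.57 kb. By length on 2L these runs ranked 6 among 219 in replicate 1 and 55 among 235 in replicate 2. At 25 kb replicate 1 joined 13 clusters over 95.1 kb, 12 of them in the window. Replicate 2 then joined 13 over 148.0 kb, with all 11 window clusters. By length on 2L the runs at 25 kb ranked 7 among 154 in replicate 1 and 3 among 168 in replicate 2.

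The right bound of the window fell just short of a further strong region. Replicate 1 listed it at 11487124 to 11490191 with a score of 1.31, replicate 2 at 11487471 to 11489981 with 1.17, and the combined list at 11486990 to 11490163 with 1.16. In replicate 1 this score was above that of the left-hand strong cluster of the window (1.06), while in replicate 2 and the combined list it was below it (1.32 and 1.21). The region began 7124 bp (replicate 1) and 7471 bp (replicate 2) beyond the bound, and the last window clusters ended 4626 and 4307 bp before it. On the left side the nearest outside clusters were 20646 bp from the bound in replicate 1 (score 0.458), 10741 bp in replicate 2 (0.773) and 10304 bp in the combined list (0.618). Whether the region on the right belongs to the spalt genes or to a neighbour was not determined, since no release 5 gene positions were used.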

How the data were processed

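The deposited files are 3 lists of enriched regions: 1 for each ChIP sample and 1 for the replicate set, used as the authors' combined values. Coordinates are on FlyBase release 5, per the file headers, and 1-based. Reads were processed with Bowtie 0.12.7, per the submitters' processing notes. What called the clusters, at which thresholds and with which read filters, and how replicates were combined is not given in the sources used here. Scores were made by the authors and used as deposited, and their unit is not stated. Depth per sample is unknown, so no interval was given for a score or a width.

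The window, the members and all measures were chosen with earlier results of these data known. Every window cluster is reported, singly or by range and count. Clusters were shared at an overlap of at least 1 bp, and pairs were mutual longest overlaps. Domains joined clusters at most 10 kb apart. Percentiles give the share of a list with a lower score. Shares carry exact Clopper-Pearson 95% intervals. No test was run, since the study holds no contrast between groups of ChIP samples. Computation used Python 3.11.15, numpy 2.4.6, scipy 1.17.1 and matplotlib 3.10.9. Overlap counts equalled those of bedtools 2.31.1, and the interval functions were tested on simulated data. Gene names and order came from the RefSeq table of release 6, in which 2 of 2 member genes matched. The genes named are salm, salr and their nearest listed neighbours. Promoter and protein sequences, planned as a description, were not analysed here. Alternatives were a 50% overlap, clusters merged within 1000 bp, the upper 50% of each list by score or width, clusters of 2L or the autosomal arms alone, domain gaps of 5 and 25 kb, bounds set by the outermost clusters, and each replicate left out.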

Additional observations from a re-analysis of the deposited data

How the results depend on the processing

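Of 29 alternatives to 9 results, 15 stayed within the allowed spread and 14 moved. Some of the 15 could not move, or could hardly move, as described below. The mean coverage of the window was 20.0% and became 11.3% with the upper 50% of each list by score, which leaves out weak clusters by construction. Coverage of the rest of 2L is not given for that setting, so the contrast with the arm cannot be read from it. The window coverage was 16.9% to 23.1% with a replicate left out. Each of these is the value of the other replicate, which with 2 samples lies within the SD of the mean by arithmetic. The combined clusters met by replicates numbered 8 for both lists and 11 to 16 with a replicate left out, since then 1 list had to be met. The highest replicate 1 score, above 96.9% of the list, was above 97.5% of the autosomal clusters and 94.1% of the wider 50%. For replicate 2, 98.7% became 99.2% and 97.9%. For the combined list, 98.9% became 99.6% on 2L, 99.5% on the autosomal arms and 99.4% among wider clusters. Each of these scores was picked as the highest of the window, so high percentiles are partly set by that choice. The domain of 164 kb was 81.6 kb at a gap of 5 kb and 312 kb at 25 kb. In a single replicate list it was 8.57 to 53.9 kb at 10 kb, and 95.1 to 148.0 kb at 25 kb. The count of 1 stretch with at least as many combined clusters became 4 with shifted stretches, and the cause was not tested. The shares of shared clusters stayed within their intervals, at 41.2% to 52.9% in replicate 1 and 60.0% to 72.7% in replicate 2. Those intervals were wide (27.8% to 77.0% and 39.0% to 94.0%), so staying inside them is a weak check. At a 50% overlap the whole-list shares of replicates 1 and 2 were 43.1% and 46.6%, against 41.2% and 63.6% in the window. In the upper 50% by score they were 53.7% and 62.0%, against 42.9% and 60.0%. With clusters merged they were 49.8% and 57.3%, against 50.0% and 72.7%. Whether the window share lay above the list share thus changed with the setting in both replicates. No paired analysis was possible because no result comes from a test, and no values of the input samples themselves were analysed here. Unknown depth limits every score.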
